A study of Mus musculus with 6 samples.

Results

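Heat shock and DnaJ chaperone genes were followed in sorted cells of the adult mouse subventricular zone (SVZ), a stem cell niche that lines the lateral ventricles. The 88 members were all rows whose symbol starts with Hspa, Hspb, Hspd, Hspe or Hsph and a digit, with Hsp90, or with Dnaja, Dnajb or Dnajc and a digit, out of 55487 genes in the expression table. Of these, 68 could be tested, among 17278 testable genes in all, because 3 or more samples had a normalized count of 10 or more. A normalized count is the number of reads assigned to a gene, scaled by 1 factor per library. The 3 control samples (THC) had the genotype Rb(F/+);p107(+/-);p130(F/+), and the 3 triple mutant samples (TKO) had Rb(F/F);p107(-/-);p130(F/F), on a mixed C57BL/6;Sv/129 background. The retinoblastoma (Rb) family proteins pRb, p107 and p130 hold E2F transcription factors in check. Every mouse also carried NestinCreERT2, a tamoxifen-dependent recombinase under Nestin control, and the R26;EYFP reporter, so that recombination of the F alleles was directed to Nestin-expressing cells, whereas the p107 alleles did not depend on tamoxifen. The series asks how the Rb family acts on quiescent and activated neural stem cells, and the comparison made was TKO against THC. Mice aged 6 to 10 weeks received tamoxifen by gavage on 5 days (200 mg/kg a day), and YFP-positive cells were sorted 10 days after the last dose from tissue pooled over several mice, with at least 200000 cells per sample. By the batch label, THC 1 and TKO 1 belong to February and the other 4 samples to November.

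Hsp70 proteins bind exposed hydrophobic stretches of unfolded proteins and release them with each cycle of ATP hydrolysis. DnaJ proteins (Hsp40) deliver clients and start hydrolysis, nucleotide exchange factors such as Hsp110 end the cycle, Hsp90 finishes maturing clients such as kinases and receptors, and small heat shock proteins hold aggregation-prone proteins. Each compartment has its own set. The cytosolic set is induced by heat through heat shock factor 1 (Hsf1), which binds GAA repeats. The endoplasmic reticulum (ER) set is induced by unfolded proteins in the ER through Atf6 and Xbp1, and the mitochondrial set folds imported proteins.

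Promoters were searched for the elements known for the cytosolic and ER sets, and windows of members described below are printed to show which carry them. RefSeq promoters (GRCm38.p6, 250 bases before to 50 after each listed start) were found for 58 of the 88 members, beside 27025 gene symbols in all, and both strands were searched. A 2-unit heat shock element was taken as GAANNTTC, and a 3-unit element as that with a further GAA or TTC after another NN, so the 3-unit matches (4 of 58 members, 0.662% of all promoters) are also counted among the 2-unit ones. The 2-unit element was in 5 of 8 heat-inducible promoters (62.5%, Hspa1a, Hspa1b, Hspb1, Dnaja1 and, after the start, Hsph1), in 0 of 11 ER promoters, in 2 of 7 mitochondrial promoters (the divergent pair Hspd1 and Hspe1) and in 9.04% of all promoters. It was also in 3 of 6 small heat shock, 2 of 4 membrane traffic and 2 of 10 constitutive cytosolic promoters, and in 24.1% of member promoters. The ER stress response element, CCAAT and CCACG with 9 bases between them, was in 3 of 11 ER promoters (27.3%, Hspa5, Hsp90b1 and Dnajc3), in no other member and in 0.137% of all promoters. The unfolded protein response element, TGACGTGG, was in 0 of 11 ER promoters, 1 of 58 member promoters and 0.714% of all promoters. The ER stress response element contains a CCAAT box, which with or without CCACG was in 41.1% of all promoters. Windows run 5′ to 3′ on the gene's strand, and capitals mark the elements. Those of Hspd1 and Hspa5 lie in exons of longer GENCODE transcripts, and that of Hspb6 lies before its second listed start.
Hspa1a chr17:34972238-34972275(-): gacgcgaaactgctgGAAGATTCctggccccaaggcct
Hspa1b chr17:34959320-34959357(-): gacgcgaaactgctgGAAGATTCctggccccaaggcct
Hspb1 chr5:135887787-135887844(+): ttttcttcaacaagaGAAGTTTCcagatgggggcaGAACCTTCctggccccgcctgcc
Hspb6 chr7:30553166-30553203(+): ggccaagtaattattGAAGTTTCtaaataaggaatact
Dnaja4 chr9:54699454-54699491(+): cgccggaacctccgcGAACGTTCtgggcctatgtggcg
Hspd1 chr1:55088054-55088081(-): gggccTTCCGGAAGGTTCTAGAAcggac
Hspa5 chr2:34772020-34772048(+): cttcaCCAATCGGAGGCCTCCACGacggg
Hsp90b1 chr10:86705518-86705671(-): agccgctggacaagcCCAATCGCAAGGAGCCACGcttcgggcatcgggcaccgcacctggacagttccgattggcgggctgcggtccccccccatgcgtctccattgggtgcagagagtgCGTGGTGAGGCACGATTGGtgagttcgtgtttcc
Dnajc3 chr14:118937812-118937860(+): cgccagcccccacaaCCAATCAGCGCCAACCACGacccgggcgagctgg
The windows of Hspa1a and Hspa1b, near-identical copies on chromosome 17, were the same base for base. Hsp90b1 had 2 ER stress response elements on opposite strands. A match is a description of these letters and not evidence of binding.

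Libraries held 15536084 to 16961817 assigned reads, and members took 1.09 to 1.42% of the normalized counts. Rbl1, which encodes p107, was at 554 ± 80.5 in THC and 24.9 ± 14.9 in TKO (SD of 3 samples), and every TKO library was lower, as the genotype has it. Rb1 rose from 1849 ± 199 to 3267 ± 355 (log2 change 0.82, adjusted p = 0.00066), and Rbl2, which encodes p130, had a log2 change of -0.13 (adjusted p = 0.54). Counts of Rb1 and Rbl2 cover the whole gene and do not report on deletion of the floxed part. THC 3 stood apart for constitutive cytosolic and mitochondrial chaperones. It was the highest THC library for 37 of 68 members (54.4%), against 33.6% of all genes. By class it led for 11 of 13 constitutive cytosolic, 8 of 10 mitochondrial, 4 of 9 heat-inducible and 3 of 13 ER genes. In the ER class the February libraries led instead. THC 1 was the highest THC library for 8 of 13 ER genes (61.5%, against 36.6% of all genes). TKO 1 was the highest TKO library for 10 of 13 (76.9%, against 38% of all genes). Every marker list for other cell types was present in the sorted cells and Mia of the ependymal list was the only marker at 0 in a library. In TKO, 16 of 16 S phase and mitosis genes were higher (summed level 41386 to 60908 in THC and 131779 to 149568 in TKO), as were 14 of 20 immediate early genes (109533 to 137371 in THC and 180707 to 202753 in TKO) and 7 of 14 microglia markers (1158 to 5816 in THC and 1685 to 8907 in TKO). Lower were 11 of 11 oligodendrocyte (96861 to 104823 in THC and 17574 to 28893 in TKO), 10 of 12 endothelial (7288 to 16492 in THC and 3251 to 4534 in TKO), 8 of 11 mural (11446 to 17786 in THC and 4077 to 6906 in TKO), 6 of 12 testable neuron (9821 to 13747 in THC and 6356 to 7759 in TKO) and 7 of 12 neuroblast markers (43024 to 51309 in THC and 33312 to 38273 in TKO). Of 12 astrocyte and quiescent stem cell markers, 1 was higher and 6 were lower (164498 to 286908 in THC and 143042 to 188831 in TKO). Of 12 transit-amplifying and activated stem cell markers, 4 were higher and 2 were lower, with overlapping sums (55114 to 72190 in THC and 49918 to 68792 in TKO). Beside these counts, 14.3% of all genes tested were called higher and 13.6% lower. In bulk samples, fewer cells of a type and less RNA per cell cannot be told apart, and the part of cell makeup in the chaperone differences below was not tested.

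Chaperone genes moved in both directions. In TKO, 10 of 68 members rose and 8 fell (adjusted p under 0.05), or 26.5% of members beside 27.9% of all genes tested (14.3% higher and 13.6% lower). Of the 68 members, groups did not overlap for 24, 13 higher and 11 lower, beside 38.9% of all genes. The median log2 change was 0.01 over members and -0.0003 over all genes, and a change of at least 2-fold in either direction was seen in 5 members (7.35%) beside 15.7% of all genes. Hspb6, Dnajc9, Hspa14, Hsp90b1, Dnajb11, Dnajc10, Dnajc3, Hspa4l, Hspb8 and Dnajc22 rose. Dnajc12, Dnaja4, Dnajb2, Dnajc28, Hspa2, Hspa1b, Dnajc18 and Dnajb4 fell. Of these 18 calls, 11 held in every fit that left out 1 library, and 7 (Dnajb4, Dnajc10, Dnajc28, Dnajc3, Hspa1b, Hspa4l and Hspb8) did not. Over all genes, 2469 were called higher and 2345 lower, and fits without 1 library gave 1890 to 2205 and 1637 to 2063.

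**Figure D1:**
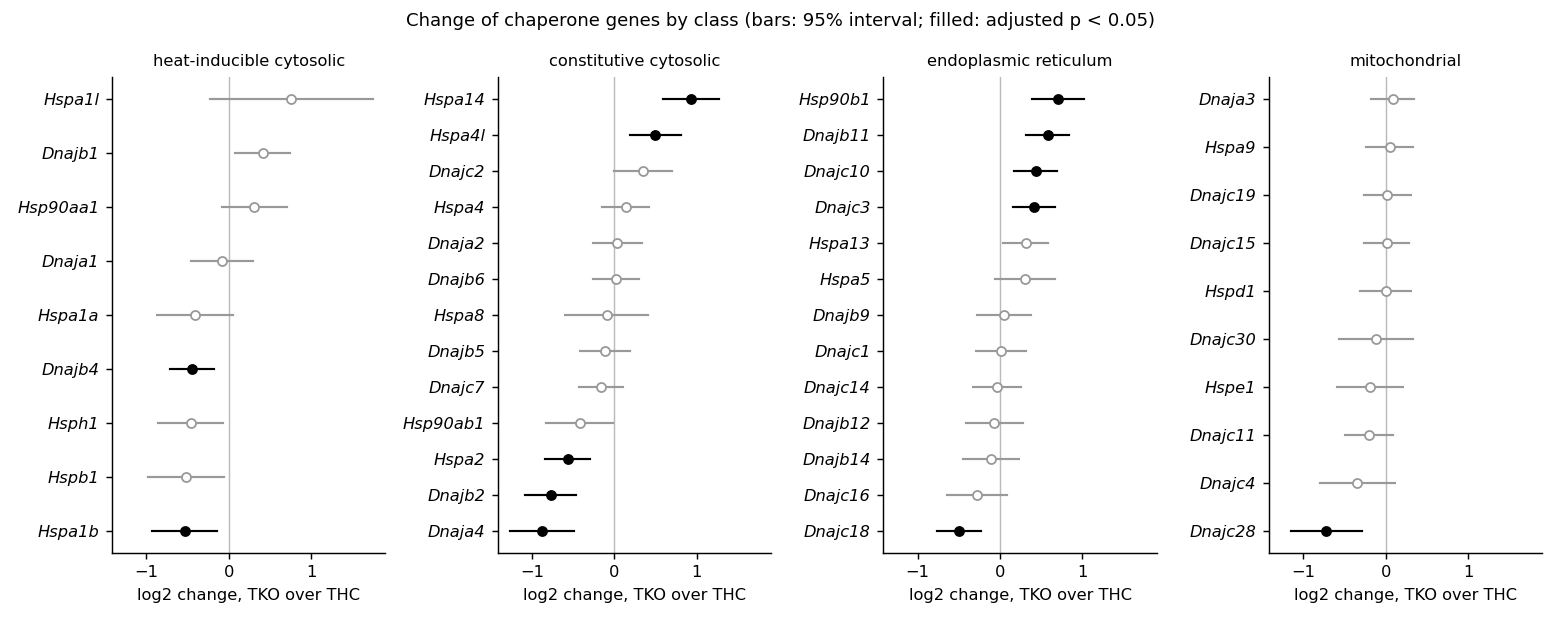
Log2 change of normalized counts, TKO over THC, for the testable members of 4 classes, with 95% intervals of limma as bars and filled points at an adjusted p under 0.05. In the ER panel 4 genes are filled to the right of 0 and 1 to the left, whereas the mitochondrial genes other than Dnajc28 sit between -0.34 and 0.08.

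Among heat-inducible cytosolic chaperones, Hspa1b and Dnajb4 fell and none rose. Of 9 genes, 0 were higher and 2 were lower by limma (22.2% called beside 27.9% of all genes), with a median log2 change of -0.41. At an unadjusted p under 0.05, 1 was higher and 4 were lower, beside 3326 and 3307 of all 17278 genes. The authors' deposited test called 1 higher (Dnajb1) and 3 lower (the 2 called by limma and Hsph1), beside 2438 and 2351 of all genes. Hspa1a and Hspa1b encode the Hsp70 that stressed cells make in bulk. Hspa1b (chromosome 17, 34956436 to 34959238, GRCm38) was at 745, 1059.6 and 946 in THC 1 to 3 and 508, 534 and 902 in TKO 1 to 3. TKO 3 lay within the THC range, so the groups overlapped (log2 change -0.54, SE 0.18, adjusted p = 0.043). The fall in Hspa1b was called in 1 of 6 fits without 1 library, that without TKO 3 (adjusted p = 0.0095 to 0.21), and was also lost with no filter, with scaling by library total and with no batch term. Its copy Hspa1a was at 365, 633 and 505 in THC 1 to 3 and 342, 290.2 and 504 in TKO 1 to 3, again with overlap (log2 change -0.41, 95% interval -0.87 to 0.06, adjusted p = 0.18). Reads from these copies cannot be assigned with certainty to either, and their ratio (Hspa1a over Hspa1b) was 0.490 to 0.597 in THC and 0.543 to 0.672 in TKO.

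Dnajb4, a DnaJ partner of Hsp70, was the other member of this class that fell, with 1480.5, 1311 and 1411 in THC 1 to 3 and 986, 1096 and 1011 in TKO 1 to 3. All TKO libraries were below all THC libraries (log2 change -0.44, SE 0.12, adjusted p = 0.018), but the call was lost without THC 1, THC 3, TKO 1 or TKO 3 in turn (adjusted p = 0.026 to 0.11). Hsph1, the Hsp110 exchange factor, was at 3902, 3769.9 and 6539 in THC 1 to 3 and 2847, 3884 and 3343 in TKO 1 to 3. THC 3 was far above the other libraries, and the groups overlapped between TKO 2 and the lower THC libraries (log2 change -0.46, SE 0.18, adjusted p = 0.079). The Hsph1 difference was called in 1 of 6 fits without 1 library, that without THC 2 (log2 change -0.69, adjusted p = 0.0076). Over the 6 fits its log2 change was -0.69 to -0.23 (adjusted p = 0.0076 to 0.30). Hspb1, the small heat shock protein Hsp25, was at 189, 466 and 319 in THC 1 to 3 and 172, 212 and 265 in TKO 1 to 3. THC 2 was the highest and the groups overlapped (log2 change -0.51, SE 0.21, adjusted p = 0.094). THC 2 also had the highest summed endothelial level, 16492, and its part in the Hspb1 value was not tested. The Hspb1 difference was called in 1 of 6 fits without 1 library, that without TKO 1 (adjusted p = 0.0495). Over the 6 fits its log2 change was -0.70 to -0.31 (adjusted p = 0.0495 to 0.37).

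Dnajb1 and Hsp90aa1 pointed the other way without passing the test. Dnajb1, the main DnaJ partner of inducible Hsp70, was at 4375, 3933 and 5494 in THC 1 to 3 and 6831, 5619.6 and 5796 in TKO 1 to 3. The 3 TKO values were above all THC values (log2 change 0.41, SE 0.15, adjusted p = 0.065). Hsp90aa1, the inducible Hsp90 isoform, was at 14943, 16017 and 22611 in THC 1 to 3 and 20204, 22326 and 22986 in TKO 1 to 3. THC 3 reached the level of TKO, and the other THC libraries were lower (log2 change 0.31, SE 0.18, adjusted p = 0.23). Without THC 3 both were called higher, Dnajb1 with a log2 change of 0.58 (adjusted p = 0.0081) and Hsp90aa1 with 0.47 (adjusted p = 0.0476). Of the 6 fits without 1 library, this was the only 1 that called either. The ranges were 0.30 to 0.58 for Dnajb1 (adjusted p = 0.0081 to 0.34) and 0.19 to 0.47 for Hsp90aa1 (adjusted p = 0.0476 to 0.58). Dnaja1, a farnesylated DnaJ partner of Hsc70, was at 9714, 9151 and 13234 in THC 1 to 3 and 9242, 11765 and 9166 in TKO 1 to 3 and showed no difference beyond its spread (log2 change -0.08, 95% interval -0.46 to 0.30, adjusted p = 0.78). Hspa1l, a low Hsp70 gene, was at 16.8 ± 5.58 in THC and 29.5 ± 11.3 in TKO (SD of 3 samples), and shares 71.9% of its exon bases with the opposite-strand gene Gm10501, which this unstranded chemistry cannot separate.

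The regulators and cytosolic co-chaperones around these genes moved in both directions. Of 30 listed genes, 29 were testable, 3 were higher and 4 were lower, 24.1% beside 27.9% of all genes. Cryab, the small heat shock protein alpha-B crystallin, was at 1270.0, 1231 and 1495 in THC 1 to 3 and 643, 782 and 817 in TKO 1 to 3 and fell with no overlap (log2 change -0.83, SE 0.13, adjusted p = 0.00058). Fkbp5, an immunophilin that binds Hsp90, was at 651, 624 and 897 in THC 1 to 3 and 1313, 1179 and 1010.2 in TKO 1 to 3 and rose with no overlap (log2 change 0.70, SE 0.17, adjusted p = 0.0079). Among genes picked after their values were seen, the Hsp90 co-chaperone p23 (Ptges3) rose by 0.54 and the Hsp90 activator homologue Ahsa2 fell by 0.67. Hsf1 itself was at 1760.2, 1599.8 and 1646 in THC and 1296, 1295 and 1378 in TKO (log2 change -0.33, SE 0.12, adjusted p = 0.053). Bag3, a heat-inducible exchange factor, had a log2 change of -0.10 (adjusted p = 0.77). In the November samples alone, none of the list was called higher. Without THC 1 or TKO 1 that count was 0, and without THC 2 or TKO 2 it was 1. The count of lower genes was 2 without THC 3 or TKO 2 and 1 without TKO 3. Over all genes, leaving out 1 library gave 1890 to 2205 higher, beside 2469 in the main fit, and 1637 to 2063 lower, beside 2345.

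Constitutive cytosolic chaperones split: of 13 genes, 2 rose, 3 fell and 8 did not pass (38.5% called beside 27.9% of all genes), with a median log2 change of -0.09. Hspa14, a ribosome-associated Hsp70 that works with Dnajc2 on nascent chains, was at 1079, 1127 and 1632 in THC 1 to 3 and 2311, 2666 and 2204 in TKO 1 to 3. TKO values were all above THC values (log2 change 0.92, SE 0.16, adjusted p = 0.00092, 1.90-fold), also within each batch (1.10 within February and 0.84 within November). Gm45902, which lies on the same strand over 7.9% of the Hspa14 exon bases, rose as well (log2 change 0.96, SE 0.17, adjusted p = 0.0011), and reads in the shared part belong to either. Its partner Dnajc2 was at 661, 637 and 784 in THC 1 to 3 and 758, 1142 and 786 in TKO 1 to 3, with TKO 2 high and the groups overlapping (log2 change 0.35, 95% interval -0.01 to 0.70, adjusted p = 0.14). Hspa4l, an Hsp110 family exchange factor, was at 2924, 2967 and 3851 in THC 1 to 3 and 4908, 4350.4 and 4417 in TKO 1 to 3. It rose without overlap (log2 change 0.50, SE 0.14, adjusted p = 0.021), but the call was lost without THC 1, THC 2 or TKO 1 (adjusted p = 0.0045 to 0.17). Its close relative Hspa4 was at 2216, 1919.9 and 2235 in THC 1 to 3 and 2542, 2486 and 2004 in TKO 1 to 3, with overlap (log2 change 0.14, 95% interval -0.15 to 0.42, adjusted p = 0.48).

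The members that fell in this class were Dnaja4, Dnajb2 and Hspa2. Dnaja4, a DnaJ of type A, has in its promoter the 2-unit element printed above and another (GAACCTTC) from -52 to -45 relative to the start. It was at 524, 685 and 729 in THC 1 to 3 and 417, 329.9 and 308 in TKO 1 to 3 (log2 change -0.87, SE 0.18, adjusted p = 0.0034). All TKO values were lower, and the difference was -0.33 within February and -1.15 within November. Of its exon bases, 44.1% also belong to Wdr61 on the opposite strand, which had a log2 change of -0.10 (adjusted p = 0.58). Dnajb2, a neuron-enriched DnaJ that binds ubiquitin chains, was at 928, 1175 and 1246 in THC 1 to 3 and 655, 585 and 713 in TKO 1 to 3, again with no overlap (log2 change -0.77, SE 0.14, adjusted p = 0.0017). Neuron markers were lower in the same libraries (6 of 12 called, summed level 9821 to 13747 in THC and 6356 to 7759 in TKO), and their part in the Dnajb2 difference was not tested. Hspa2, an Hsp70 best known from testis, was at 2165, 2454 and 2317 in THC 1 to 3 and 1639.6, 1392 and 1656 in TKO 1 to 3 (log2 change -0.57, SE 0.13, adjusted p = 0.0055). These 3 falls were called in each of the 6 fits without 1 library.

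The most abundant chaperone transcripts were in this class and did not pass the test. Hspa8, the constitutive Hsc70, was at 36018, 28236 and 46079 in THC 1 to 3 and 30014, 39741 and 32277 in TKO 1 to 3. Values ranged widely within each genotype, with THC 3 at the top (log2 change -0.09, 95% interval -0.59 to 0.40, adjusted p = 0.80). Hsp90ab1, the constitutive Hsp90 isoform, was at 21598, 21545 and 30006 in THC 1 to 3 and 18289, 18425 and 17241 in TKO 1 to 3. All TKO libraries lay below all THC libraries and were close together (log2 change -0.42, 95% interval -0.82 to -0.02, adjusted p = 0.11). The authors' deposited test called it lower (log2 change -0.43, adjusted p = 0.032). THC 3 was the highest THC library for 11 of 13 genes of the class. Without it the class median was 0.077, on the other side of 0.

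**Figure D2:**
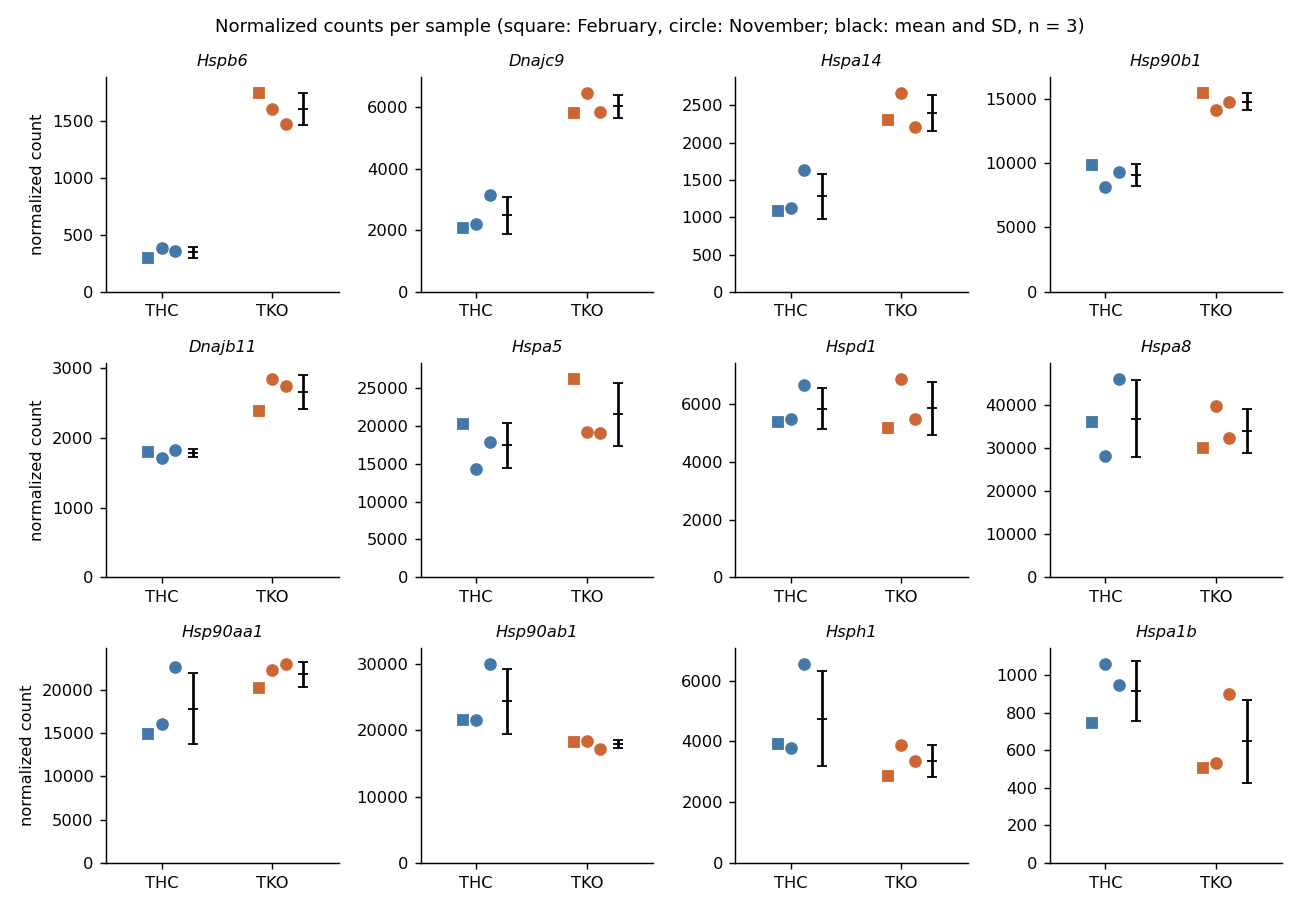
Normalized counts of 12 chaperone genes in each library, with February as squares and November as circles, beside the mean and SD of each genotype. Hspb6, Dnajc9, Hspa14, Hsp90b1 and Dnajb11 have all TKO values above all THC values, Hsp90ab1 has all TKO values below, and THC 3 is the highest THC point for Hspd1, Hspa8, Hsp90aa1, Hsp90ab1 and Hsph1.

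Ratios of paired genes within a library, in counts not divided by length, do not depend on its scaling factor, and 6 were computed after the values had been seen. The inducible to constitutive Hsp90 ratio (Hsp90aa1 over Hsp90ab1) was 0.692 to 0.754 in the THC libraries and 1.10 to 1.33 in the TKO libraries. THC 3, which was high for each gene alone, was at 0.754 and thus with the other THC libraries. The log2 difference of this ratio was 0.68 within February and 0.76 within November. Dnajb1 over Dnaja1 was 0.415 to 0.450 in THC and 0.478 to 0.739 in TKO, and Hspa4l over Hspa4 was 1.32 to 1.72 and 1.75 to 2.20. Hsp90b1 over Hspa5 was 0.485 to 0.567 and 0.588 to 0.775. Hsph1 over Hspa8 was lower in TKO, at 0.108 to 0.142 and 0.0949 to 0.104. For these 5 ratios the groups did not overlap, which choosing pairs with their values known favours. Among single genes, 38.9% did not overlap, and the share among gene pairs at large was not computed. The exact two-sided permutation p was 0.1 for each, the smallest that 3 against 3 samples can give (20 regroupings), and 0.4 for Hspa1a over Hspa1b, so none of the 6 can pass a threshold of 0.05, adjusted or not.

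**Figure D3:**
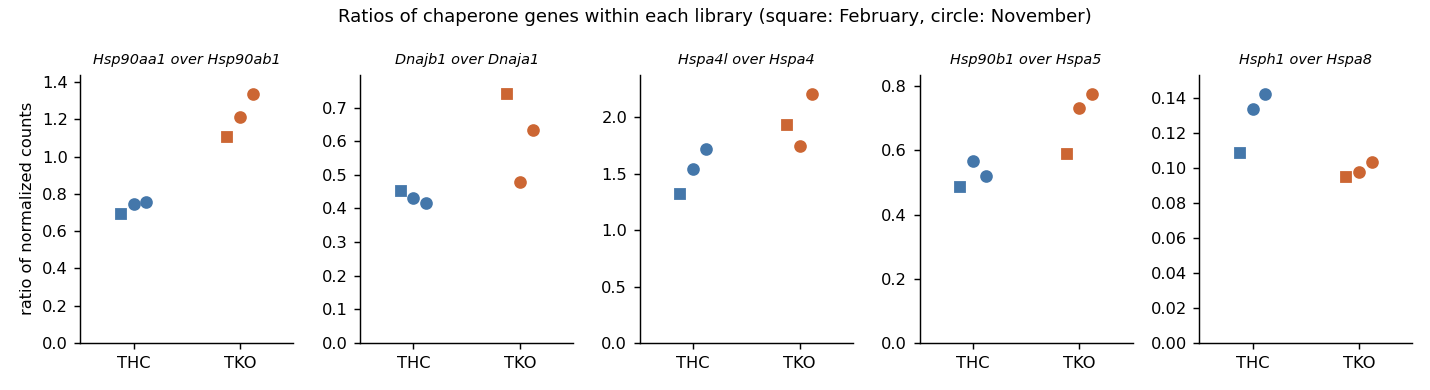
Ratio of normalized counts of 2 chaperone genes within each library, for 5 pairs, with February as squares and November as circles. The Hsp90aa1 over Hsp90ab1 ratio is below 1 in every THC library and above 1 in every TKO library, in counts not divided by length. Per kb of exon the mean of Hsp90ab1 is the higher in both genotypes (8130.4 and 4543 in THC, 5997 and 5556 in TKO).

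In the ER class 4 of 13 genes rose, 1 fell and 8 did not pass (38.5% called beside 27.9% of all genes), with a median log2 change of 0.05. Hsp90b1, the ER Hsp90 known as Grp94 (chromosome 10, 86690209 to 86705509), was at 9806, 8095 and 9284 in THC 1 to 3 and 15427, 14085 and 14747 in TKO 1 to 3. Every TKO library was above every THC library (log2 change 0.71, SE 0.14, adjusted p = 0.0033, 1.63-fold). On the opposite strand, 1810014B01Rik covers 10.3% of the Hsp90b1 exon bases. Gm15344 and Gm25745 cover 2.1% and 3.3% on the same strand, and the part of these genes in the counts was not tested. Dnajb11 (ERdj3), a DnaJ that hands clients to BiP, was at 1800.2, 1716 and 1821 in THC 1 to 3 and 2383, 2850.1 and 2745 in TKO 1 to 3 and rose without overlap (log2 change 0.58, SE 0.12, adjusted p = 0.0037). Dnajc10 (ERdj5), a disulfide reductase of ER-associated degradation, was at 1874, 1916 and 1732 in THC 1 to 3 and 2664, 2279 and 2506 in TKO 1 to 3 (log2 change 0.43, SE 0.12, adjusted p = 0.018). Dnajc3 (p58IPK), a BiP partner that also restrains the kinase Perk, was at 2868, 2615 and 2544 in THC 1 to 3 and 3714, 3295 and 3649.8 in TKO 1 to 3 (log2 change 0.41, SE 0.12, adjusted p = 0.022). Both rises were without overlap. The Dnajc10 call was lost without THC 1, THC 3, TKO 1 or TKO 3 (adjusted p = 0.025 to 0.10), and the Dnajc3 call held only without TKO 2 (adjusted p = 0.049 to 0.083).

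Hspa5, which encodes BiP, the ER Hsp70, did not pass the test. It was at 20199.7, 14283 and 17832 in THC 1 to 3 and 26244, 19252 and 19034 in TKO 1 to 3. TKO 1 was the highest library, and the November TKO libraries lay between THC 1 and THC 3 (log2 change 0.30, 95% interval -0.06 to 0.67, adjusted p = 0.21). Its February and November differences were 0.38 and 0.26. Hspa13, a small Hsp70 of microsomes, was at 1878, 1415 and 1317 in THC 1 to 3 and 2019, 1859 and 1775 in TKO 1 to 3, with overlap through THC 1 (log2 change 0.31, 95% interval 0.04 to 0.58, adjusted p = 0.082). Dnajb9 (ERdj4), a target of spliced Xbp1, was at 1313, 1224 and 891 in THC 1 to 3 and 1569, 932 and 1084 in TKO 1 to 3 and did not separate the genotypes (log2 change 0.05, 95% interval -0.28 to 0.38, adjusted p = 0.85). Dnajc18, a membrane DnaJ of the ER, was the member of the class that fell, with 1946, 1849 and 1532 in THC 1 to 3 and 1424, 1208 and 1142 in TKO 1 to 3 (log2 change -0.50, SE 0.12, adjusted p = 0.011), and its fall was called in each fit without 1 library.

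Other genes of the unfolded protein response and ER folding were called in both directions: of 32 testable genes, 10 rose, 4 fell and 18 did not pass (43.8% called beside 27.9% of all genes). Ddit3, the stress transcription factor Chop, was at 411, 309.8 and 406 in THC 1 to 3 and 989.6, 868 and 969 in TKO 1 to 3 (log2 change 1.33, SE 0.15, adjusted p = 4.5e-05), with TKO values all higher. Sdf2, a protein of the ER lumen, was at 1652, 1685 and 1558 in THC 1 to 3 and 917, 879 and 943 in TKO 1 to 3 and fell (log2 change -0.84, SE 0.12, adjusted p = 0.00027). Among genes picked after their values were seen, Trib3, a pseudokinase induced with Chop, rose by 2.37 and the secreted protein Manf by 0.89 on the log2 scale. The lectin chaperone calnexin (Canx) rose by 0.64 and the ER Hsp110 Hyou1 by 0.53. Picked likewise, Selenos and Derl1 fell (log2 changes of -0.72 and -0.39). Calr, Pdia4, Pdia6 and P4hb were among those not called (log2 changes of 0.10, 0.0091, 0.16 and 0.18). Xbp1, the transcription factor behind much of the ER chaperone response, was at 2452, 2191 and 2935 in THC 1 to 3 and 1355, 1578 and 1398 in TKO 1 to 3 and fell (log2 change -0.80, SE 0.14, adjusted p = 0.0011), and gene counts do not report its splicing. The number of higher genes in this list was 5 in the November samples alone, 4 without THC 1 or TKO 1, and 6 without THC 2 or TKO 3. Over all genes, 2469 were higher in the main fit and 1890 to 2205 without 1 library.

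Mitochondrial chaperones changed little: their median absolute log2 change was 0.10, beside 0.30 for the ER class, 0.44 for the heat-inducible class and 0.36 for all genes. Of 10 genes, 0 rose and 1 fell (10.0% called beside 27.9% of all genes), with a median log2 change of -0.06. At an unadjusted p under 0.05 the counts were also 0 and 1, beside 3326 and 3307 of all 17278 genes. The authors' deposited test gave the same counts, beside 2438 and 2351 of all genes. Hspd1, the chaperonin Hsp60 (chromosome 1, 55077835 to 55088243), was at 5392, 5494 and 6664 in THC 1 to 3 and 5175, 6889 and 5505 in TKO 1 to 3. THC 3 and TKO 2 were the high libraries, and the interval of the difference ran from -0.31 to 0.31 around -0.003. Its lid Hspe1 (Hsp10), transcribed away from the shared promoter, was at 1064, 1032 and 1588 in THC 1 to 3 and 760.3, 1434 and 1072 in TKO 1 to 3 (log2 change -0.19, 95% interval -0.59 to 0.20, adjusted p = 0.48). The same THC 3 and TKO 2 libraries were high. Hspa9, the mitochondrial Hsp70 mortalin, was at 6433, 6439 and 6771 in THC 1 to 3 and 7189, 7011 and 6165 in TKO 1 to 3 (log2 change 0.05, 95% interval -0.24 to 0.34, adjusted p = 0.82). Dnajc28 was the member that fell, at 266, 211 and 249 in THC 1 to 3 and 137, 153 and 149 in TKO 1 to 3 (log2 change -0.72, SE 0.20, adjusted p = 0.017). Its groups did not overlap, and the call was lost without THC 1, THC 3 or TKO 1 (adjusted p = 0.019 to 0.094). The other 6, among them the import motor subunits Dnajc19 and Dnajc15, had log2 changes between -0.34 and 0.08, each with overlapping groups.

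In the list of mitochondrial folding, import motor and protease genes, 2 of 22 rose and 0 fell by limma, 9.09% beside 27.9% of all genes called. At an unadjusted p under 0.05, 2 rose and 1 fell, beside 3326 and 3307 of all 17278 genes. The authors' deposited test called 2 and 0, beside 2438 and 2351 of all genes. Atf5, a transcription factor of the mitochondrial stress response, was at 56.1, 72.7 and 116 in THC 1 to 3 and 421, 438 and 453 in TKO 1 to 3 (log2 change 2.47, SE 0.23, adjusted p = 1.4e-05). Every TKO value was above every THC value. Timm50, a receptor of the inner membrane import channel, was at 1435, 1593 and 1777 in THC 1 to 3 and 2039, 2593 and 2221 in TKO 1 to 3 (log2 change 0.51, SE 0.12, adjusted p = 0.0084), also without overlap. Of 14 genes for the cytosolic chaperonin TRiC and prefoldin, which fold actin and tubulin, none was called in either direction by limma (beside 27.9% of all genes). None was called in the authors' deposited test (beside 2438 and 2351 of 17278 genes). At an unadjusted p under 0.05, 1 was higher, beside 3326 of 17278 genes. Their median log2 change was 0.06.

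Set side by side, the heat-inducible, ER and mitochondrial classes had 0, 4 and 0 genes higher and 2, 1 and 1 lower, and median log2 changes of -0.41, 0.05 and -0.06, beside -0.0003 for all genes. The difference between classes was not tested. The summed ER level was 44441, 36043 and 39994 in THC and 58252, 48401 and 49557 in TKO, with every TKO sum above every THC sum. This sum is carried by Hspa5 and Hsp90b1. The heat-inducible sum was 35737, 36352 and 51074 in THC and 41156, 45749 and 44015 in TKO, where THC 3 was the highest of all and the other THC libraries the lowest. It is carried by Hsp90aa1, Dnaja1 and Dnajb1, whereas the class median is the value of Hspa1a. The mitochondrial sum was 17795, 18251 and 20662 in THC and 17836, 20859 and 17585 in TKO, with overlap. The constitutive cytosolic sum was 78017, 70556 and 100102 in THC and 70724, 82080.3 and 71397 in TKO, again with THC 3 at the top. The heat-inducible median was -0.23 without THC 3 and -0.18 without TKO 2, and the ER median was 0.21 without THC 2 and 0.14 without TKO 2.

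**Figure D4:**
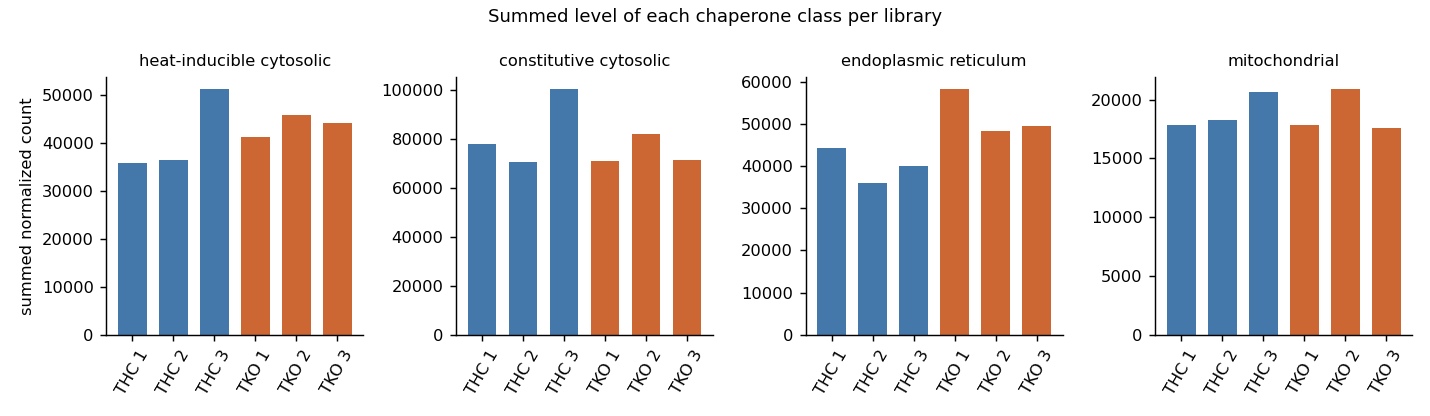
Summed normalized counts of all testable and low members of 4 chaperone classes in each library, THC in blue and TKO in orange. The ER bars of TKO are all taller than those of THC, and THC 3 has the tallest heat-inducible and constitutive cytosolic bars.

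The largest change among members with a mean normalized count of at least 100 was in a small heat shock gene. Hspb6 (Hsp20, chromosome 7, 30552178 to 30555443), a small heat shock protein best known from muscle, was at 297, 385 and 359 in THC 1 to 3 and 1748, 1606 and 1472 in TKO 1 to 3. The lowest TKO value was well above the highest THC value (log2 change 2.22, SE 0.14, adjusted p = 1.8e-06, 4.64-fold), and the difference was 2.55 within February and 2.05 within November. On the opposite strand, Proser3 covers 5.3% of its exon bases and rose by 0.67 (adjusted p = 0.0044), and Lin37, which covers 0.1%, had a log2 change of 0.28 (adjusted p = 0.22). Markers of pericytes and smooth muscle, where Hspb6 is abundant, were lower in TKO (8 of 11 called, 0 higher, summed level 11446 to 17786 in THC and 4077 to 6906 in TKO), and their part in the Hspb6 difference was not tested. Hspb8, which works with Bag3 in selective autophagy, was at 361, 529 and 518 in THC 1 to 3 and 853, 542 and 714 in TKO 1 to 3. TKO values were all above THC values, TKO 2 only just (log2 change 0.58, SE 0.20, adjusted p = 0.0496). The difference was 1.24 within February and 0.25 within November, and the call was lost without THC 1, THC 3, TKO 1 or TKO 3 (adjusted p = 0.015 to 0.39), and also at a pseudocount of 0.5, with no filter, with scaling by library total and with no batch term. Hspb11, an intraflagellar transport protein, was at 121, 166 and 188 in THC 1 to 3 and 172, 242 and 203 in TKO 1 to 3 (log2 change 0.38, 95% interval -0.05 to 0.82, adjusted p = 0.18). Hspb2 was at most at 16.1 in any library and shares 30.2% of its exon bases with Cryab. The class holds 7 genes, 4 of them testable, of which 2 rose (beside 14.3% of all genes called higher) and 0 fell (beside 13.6% lower). The count of falls was also 0 at an unadjusted p under 0.05 and in the authors' deposited test (beside 3307 and 2351 of 17278 genes). Small heat shock genes counted in other groups went the other way. Cryab fell (log2 change -0.83, adjusted p = 0.00058), and Hspb1 was lower without being called (log2 change -0.51, adjusted p = 0.094).

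Dnajc9 had the smallest adjusted p after Hspb6. It encodes a chaperone of histones H3 and H4 that recruits Hsp70 to them during DNA replication. Its normalized count was 2088, 2207 and 3162 in THC 1 to 3 and 5812, 6471 and 5839 in TKO 1 to 3 (chromosome 14, 20384638 to 20388910). TKO values were all above THC values (log2 change 1.30, SE 0.15, adjusted p = 6.1e-05, 2.47-fold), and THC 3, the highest THC library for Dnajc9, also had the highest summed S phase and mitosis level of THC, 60908. All 16 genes of that list rose in TKO, and whether Dnajc9 rose apart from them was not tested. Its RefSeq promoter window holds an E2F-type site 40 to 47 bases after the start (GCGGGAAA, searched with TTTGGCGC, TTTCCCGC and TTTCGCGC on both strands), as do 2.12% of all promoters and 4 of 58 member promoters. The other nuclear and RNA chaperones were not called. Dnajc8, a splicing factor, was at 2803, 3005 and 3156 in THC 1 to 3 and 3234, 4486 and 3444 in TKO 1 to 3, with no overlap but a small difference (log2 change 0.30, 95% interval 0.01 to 0.60, adjusted p = 0.12). Dnajc21, which acts in ribosome assembly, and Dnajc17 had log2 changes of 0.26 and -0.09 (adjusted p = 0.27 and 0.79).

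Chaperones of membrane traffic were not called in either direction (0 of 4 testable genes beside 27.9% of all genes, with 6 in the class). The authors' deposited test called none (beside 2438 higher and 2351 lower of 17278 genes). At an unadjusted p under 0.05, 1 was lower, beside 3307 of 17278 genes. That gene was Dnajc6, the neuronal auxilin that uncoats clathrin vesicles, at 217, 297 and 267 in THC 1 to 3 and 194, 171 and 193 in TKO 1 to 3, with all TKO values lower (log2 change -0.47, 95% interval -0.89 to -0.05, adjusted p = 0.090). Dnajc5, the cysteine string protein of synaptic vesicles, had a log2 change of -0.11 (adjusted p = 0.58), and the endosomal Dnajc13 one of 0.09 (adjusted p = 0.73).

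Among the remaining members the largest changes were in Dnajc12 and Dnajc22. Dnajc12, a partner of the aromatic amino acid hydroxylases that make monoamines, was at 219.5, 306 and 271 in THC 1 to 3 and 103, 101 and 92.7 in TKO 1 to 3. Every TKO value was less than any THC value (log2 change -1.40, SE 0.21, adjusted p = 0.00042, 2.64-fold lower), and neuron markers were lower in the same libraries, whose part was not tested. Dnajc22, a low gene, was at 10.0, 11.3 and 15.1 in THC 1 to 3 and 91.7, 54.8 and 86.0 in TKO 1 to 3 and rose (log2 change 2.56, SE 0.39, adjusted p = 0.00047). Both calls held in each fit without 1 library. Hspa12b, an Hsp70 relative of endothelial cells, was at 45.1, 161 and 70.7 in THC 1 to 3 and 61.5, 19.3 and 33.8 in TKO 1 to 3. THC 2 was the highest, as it was for the endothelial sum (16492, beside 7288 to 7380.4 in the other THC libraries). The Hspa12b difference was 0.44 within February and -2.02 within November (log2 change -1.20, SE 0.51, adjusted p = 0.10). It was called in 2 of 6 fits without 1 library, those without THC 1 or TKO 1 (adjusted p = 0.0062 to 0.41 over the 6). The authors' deposited test also called it (adjusted p = 0.040). Dnajb13, a radial spoke DnaJ of motile cilia, was at 359.8, 736 and 626 in THC 1 to 3 and 959, 666 and 724 in TKO 1 to 3, with THC 1 apart from the other libraries. Its difference was 1.41 within February and 0.03 within November (log2 change 0.49, SE 0.23, adjusted p = 0.14). The summed ependymal level was also lowest in THC 1, with 1 of 10 testable markers higher and 3 lower in TKO, at 5029 beside 7276 to 17328 in the other libraries. The part of endothelial and ependymal cells in these values was not tested. Dnajb3, a testis DnaJ, was at 38.1, 19.8 and 44.4 in THC 1 to 3 and 37.1, 94.6 and 77.3 in TKO 1 to 3 (log2 change 0.98, 95% interval 0.06 to 1.90, adjusted p = 0.11). It was called higher in 2 of 6 fits without 1 library, those without THC 1 or TKO 1 (adjusted p = 0.027 to 0.38 over the 6).

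Within batches, 47 of 68 members had differences of one sign in February and November (69.1%), beside 72.5% of all genes. All 18 called members did, which their selection largely fixes, since the fitted change averages both batches, and 29 of 50 members not called did (58.0%). Among called members the widest gap between batches was for Hspb8. The ER class median was 0.26 for the February pair and 0.05 for November, and the heat-inducible median was -0.09 and -0.37. With 1 sample of each genotype in February, the difference between batches has no test.

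**Figure D5:**
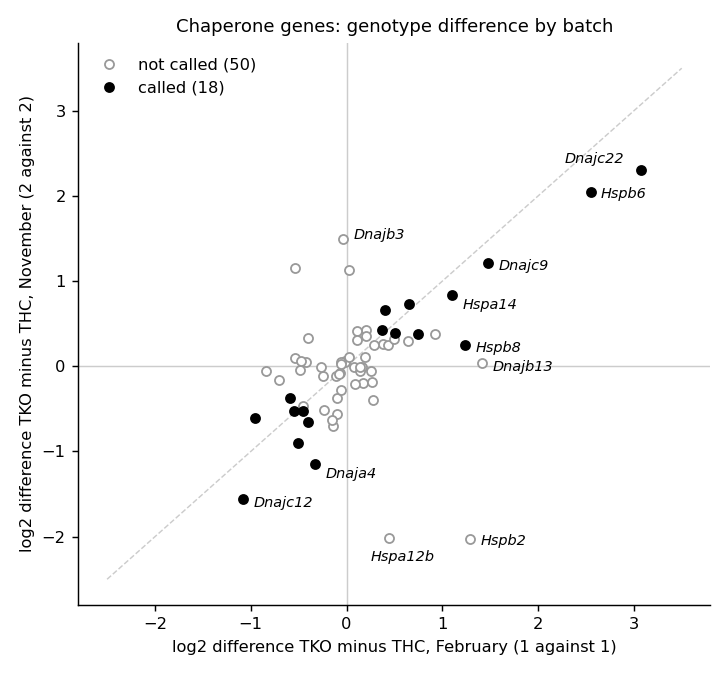
Log2 difference TKO minus THC of each testable member in November (vertical, 2 samples against 2) against February (horizontal, 1 against 1), with called members filled. Filled points lie in the lower left or upper right, and the open points of Hspb2 and Hspa12b lie farthest from the dashed line of equal differences.

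Per kilobase of exon, averaged over the 6 libraries, Hspa8 was the most abundant member at 8229 normalized counts per kb. Next were Hsp90ab1 at 7064, Hsp90aa1 at 5049 and Hspa5 at 4605. Hsp90b1 stood at 2953, Hspd1 at 2215, Dnajc9 at 1793 and Dnajb1 at 1667 on this scale. The inducible Hsp70 genes were far lower, Hspa1b at 279 and Hspa1a at 148. In THC the order of the Hsp90 isoforms was Hsp90ab1 over Hsp90aa1 (8130.4 and 4543 per kb), and in TKO their levels were 5997 and 5556. Of the 20 members that could not be tested, 14 were processed pseudogenes and 6 were genes (Hspb3, Hspb7, Hspb9, Dnajb8, Dnajc5b and Dnajc5g). Of these 20, 9 had no read in any library, and the highest value in any of them was 17.2.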

How the data were processed

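RNA-seq was done on 3 THC and 3 TKO samples of sorted cells, with groups, replicate numbers and batches taken from the titles and characteristics. Per the labels' protocols, RNA with a quality number of at least 8.0 (minimum 35 ng) was converted with SMART-Seq v4 and made into libraries with Nextera XT, which keeps no strand. Tools named in the submitters' processing notes are HISAT2, Subread (featureCounts) and DESeq2, on GRCm38. Of annotation, versions and the handling of multi-mapping reads, the sources used here say nothing.

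The authors' deposited table gives normalized counts, a signal in which each library is scaled by 1 factor. Values in each deposited column were whole multiples of 1 step (0.944 to 1.07) within 0.001 of a read, which gave the depths quoted. Per the file headers, it also holds a mean, the authors' log2 fold change and standard error, 2 columns of a score type (the Wald statistic and a weight), and p-values, unadjusted and adjusted.

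Genes at 10 or more in at least 3 samples were tested with limma (version 3.58.1, R 4.3.3) with an intensity trend on log2(value + 1), with batch and genotype as terms, 3 residual and 8.90 prior degrees of freedom, and Benjamini-Hochberg adjustment over 17278 genes. Genes were called at an adjusted p under 0.05. The pseudocount understates the change of low genes. The planned count tests were not used and the deposited values were kept as normalized values. The test was checked on simulated counts with a set dispersion and no batch effect, which cannot show how it behaves on these libraries. Coordinates and exon lengths are from GENCODE M21 (GRCm38), which matched all 88 members.

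The members and lists were chosen with earlier results of these data known. Classes were set by compartment and inducibility, and heat induction was not measured here. Hspa1l was classed as heat-inducible without a heat shock element in its searched promoter, and Dnaja4 as constitutive with such elements. Named in full were a panel of 17 members and the 4 testable members of each class, and the 2 genes of each pathway list, with the smallest adjusted p. Others were picked after their values were seen. The samples are pools that the series calls biological replicates. Replicate numbers are not known to pair samples. Correlations of same-numbered deviations were 0.23, -0.11 and 0.14, and with batch left in them they cannot decide it. No 2 libraries held identical values. No sample column was left unmapped.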

Additional observations from a re-analysis of the deposited data

How the results depend on the processing

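Results were recomputed under 16 alternatives: pseudocounts of 0.5 and 5, no filter, a filter on the mean, scaling by library total or (chosen after seeing the data) upper quartile, the authors' deposited test, no batch term, a replicate block, the November samples alone, and leaving out each library in turn. The planned count tests with edgeR and DESeq2 and TMM scaling were not run, and the deposited values were kept as normalized values. Members called higher numbered 7 to 11 and lower 5 to 11, beside 1890 to 2521 and 1637 to 2392 over all genes. Of 687 values for 43 named members, 610 kept direction and call, 41 lost the call, 15 gained it and 21 changed sign. The sign changes were in 7 members near 0, and in 0 of the 21 was the value called on either side. In the November samples Dnajb9 was at -0.055, Hspa9 at -0.0063, Hspd1 at 0.025 and Dnajc27 at -0.0047, and with upper quartile scaling Hspd1 was at 0.0016. Leaving out 1 library gave -0.23 to 0.073 for Dnaja1, -0.32 to 0.083 for Hspa8, -0.055 to 0.21 for Dnajb9, -0.0063 to 0.12 for Hspa9, -0.10 to 0.081 for Hspd1, -0.23 to 0.056 for Dnajc17 and -0.0047 to 0.098 for Dnajc27. Leaving out 1 library gave 5 to 8 members called lower. It gave class medians of -0.40 to -0.18 (heat-inducible), -0.10 to 0.077 (constitutive cytosolic) and 0.016 to 0.21 (ER). In the co-chaperone list it gave 0 to 3 genes higher and 1 to 4 lower, and in the unfolded protein response list 4 to 10 higher. In November alone the higher counts of these lists were 0 and 5. With 1 February library left out, the batch term takes up the other, so the genotype difference comes from November. With the replicate block, 15 members were called (8 higher and 7 lower), all among the 18. Dnajc3, Hspa1b and Hspb8 were lost (Hspa1b and Hspb8 kept their calls in 6 of 16 alternatives each), and the numbers are not known to pair samples. The authors' deposited test called 22 members, the 18 and Dnajb1, Hsp90ab1, Hspa12b and Hsph1. These were 11 higher and 11 lower of 68, beside 2438 and 2351 of 17278 genes. At 15536084 or more reads per library, genes below about 10 normalized counts could not be tested, and with 3 samples per genotype small changes may be missed.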
